A study of Zea mays with 6 samples.

Results

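The 7 maize genes described here are listed as members of the phenylalanine ammonia-lyase family and were chosen by identifier from a table of 44320 genes. They lie in 3 runs of identifiers. Zm00001d003015 and Zm00001d003016 form a pair, Zm00001d017274, Zm00001d017275, Zm00001d017276 and Zm00001d017279 form a group of 4, and Zm00001d033286 stands alone. The list rests on identifiers and sets no expression threshold, but it was chosen with earlier results of these data known. Neither the deposited table nor the RefSeq gene table at hand pairs any of the 7 identifiers with a name, so the family label rests on the list and could not be checked against the data. All 7 had a row in the table, and 6 had at least 1 TPM in each library and were tested.

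Messenger RNA was sequenced from leaves of 3 KO1 and 3 wild-type (WT) samples of maize (Zea mays), labelled as biological replicates and taken at the V8 vegetative stage. KO1 plants carry an edit that the labels call a ZmGA20ox3 knockout. ZmGA20ox3 is a gibberellin 20-oxidase gene. Gibberellins are plant hormones that promote stem elongation. Both groups were labelled with normal growth, so the comparison asks which leaf transcripts differ between edited and unedited plants in the absence of an imposed stress. The cultivar is given as KN5585 for both, although the WT line is written KN5855 in the description of growth, and KO1 is the 1 edited line in these libraries. How many plants went into each library is not given in the sources used here. ZmGA20ox3 itself and leaf marker genes were not analysed here, since no identifier has a name to find them by.

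Phenylalanine ammonia-lyase removes the amino group of phenylalanine to give cinnamic acid, the entry step of the phenylpropanoid pathway. Lignin, flavonoids, hydroxycinnamic acids of the grass cell wall and many defence compounds derive from that step. In grasses, some of these enzymes also accept tyrosine and yield coumaric acid directly. Plant genomes usually hold several copies, often side by side, and their transcripts are known to respond to wounding, pathogens and light. No role of a single copy in the leaf is given here, since it is not known here which named maize gene each identifier stands for.

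Values are TPM, a length-scaled transcript abundance. They divide each gene's abundance by its length and fix each library's total. Levels of different genes can therefore be set beside each other. Sequencing depth is unknown, so no counting interval is given. The number of genes at 1 TPM or more was 20697 to 21115 in KO1 libraries and 19282 to 20537 in WT libraries. Reads that match several near-identical copies can be divided between neighbouring rows, so the value of a single copy is less certain than the sum over its group. None of the 6 expressed genes shared all of its values with another row.

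The family was carried mostly by a pair of neighbouring copies, and a different copy had the highest mean in each genotype. In KO1 leaves the mean levels ran from Zm00001d017274 (324 ± 214 TPM) through Zm00001d017275 (128 ± 32.0 TPM) to Zm00001d017279, Zm00001d017276, Zm00001d003016 and Zm00001d003015, which lay between 30.7 and 21.7 TPM (SD, n = 3). In WT leaves Zm00001d017275 led with 167 ± 85.9 TPM, followed by Zm00001d017274 with 71.5 ± 29.6 TPM and by the 4 others between 26.4 and 11.3 TPM (SD, n = 3). In KO1 libraries the ranges of the 2 leading genes overlapped, as did those of each neighbouring pair among the 4 lower genes, while Zm00001d017275 lay above Zm00001d017279 in every library. In WT libraries the ranges of Zm00001d017275 and Zm00001d017274 did not overlap, nor did those of Zm00001d017274 and Zm00001d017279. Zm00001d033286 was among the 13615 genes listed at 0 in all 6 libraries and was not tested.

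**Figure D1:**
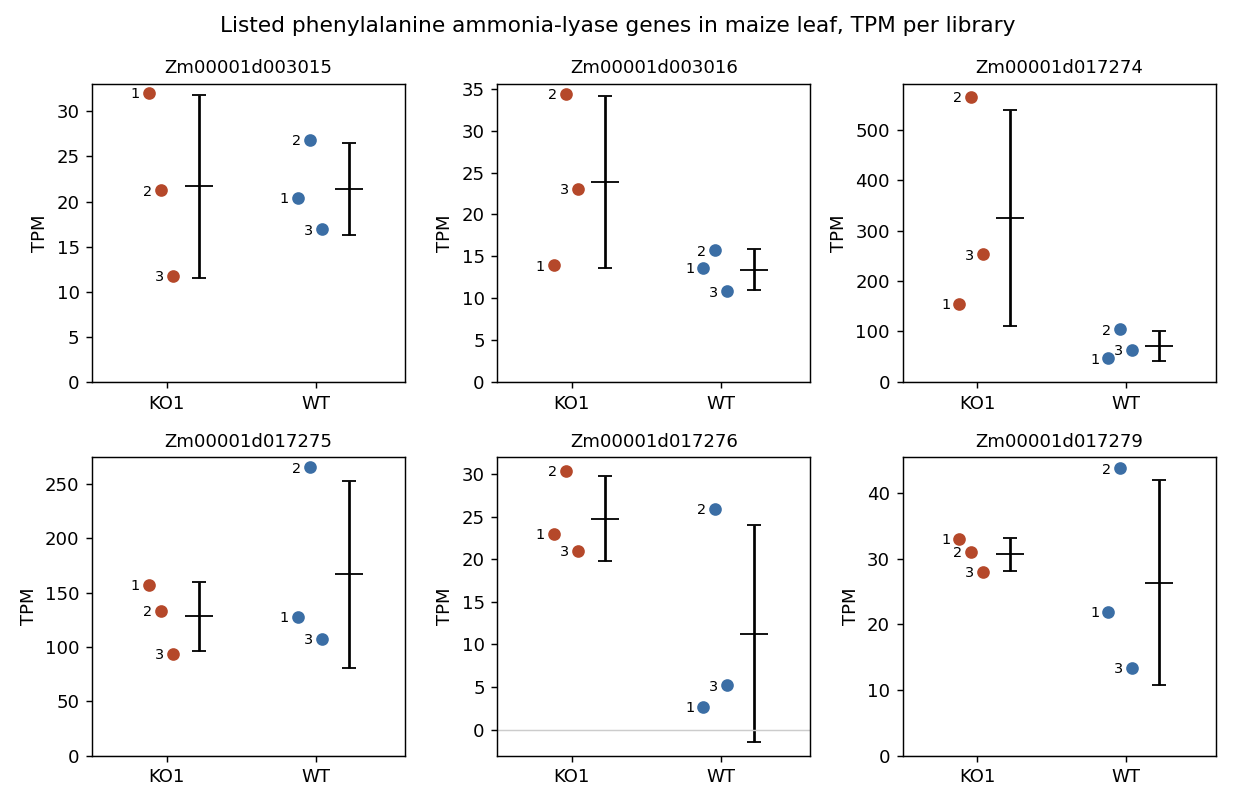
TPM of the 6 expressed genes in each KO1 and WT library. Each point is 1 library with its replicate number, and the black bar gives the mean ± SD of the 3 libraries. The vertical scale differs between panels. Zm00001d017274 is the only panel in which the KO1 points all lie above the WT points, and WT replicate 2 is the highest WT point in all 6 panels.

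Zm00001d017274 was higher in KO1 leaves. It had 155, 565 and 253 TPM in KO1 replicates 1 to 3, against 47.0, 104 and 63.3 TPM in WT replicates 1 to 3. The 2 groups did not overlap, although KO1 replicate 1 was closer to WT replicate 2 than to KO1 replicate 2. The mean was 4.53-fold higher, or 2.85-fold without KO1 replicate 2, and the difference on the log2(TPM + 1) scale was 2.04 ± 0.51 (SE; limma adjusted p = 0.043 over all tested genes). Its 95% interval ran from 0.82 to 3.25. That difference was larger in size than in 94.7% of the 20990 tested genes. The call was lost without KO1 replicate 2 (adjusted p = 0.070), without KO1 replicate 3 (0.081), without WT replicate 1 (0.119) and without WT replicate 3 (0.135), each by the same limma test, and with no filter on low values (0.066). Whether more cells with the transcript or more transcript per cell gives the higher level cannot be told apart in leaf samples of this kind.

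Zm00001d017275, the copy next to it in number, did not pass the test. It had 157, 133 and 93.8 TPM in KO1 libraries, against 128, 265 and 107 TPM in WT libraries. The groups overlapped, and WT replicate 2 was the highest of all 6. The difference was -0.29 ± 0.37 on the log2(TPM + 1) scale (SE; limma adjusted p = 0.613), with a 95% interval from -1.19 to 0.60. Its direction turned to 0.10 without WT replicate 2, so no direction is given.

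The balance between these neighbouring copies lay apart in the genotypes. The TPM of Zm00001d017274 divided by that of Zm00001d017275 was 0.99, 4.23 and 2.70 in KO1 libraries and 0.37, 0.39 and 0.59 in WT libraries. The groups did not overlap, and the spread was wide in KO1 and narrow in WT. The TPM of Zm00001d017274 by itself did not overlap either, so the ratio partly restates that gene's difference. Groups did not overlap for 40.5% of all tested genes. Zm00001d017274 made up 37.5%, 69.3% and 58.8% of the summed TPM of the family in KO1 libraries, against 20.1%, 21.7% and 29.2% in WT libraries. Zm00001d017275 made up 37.9%, 16.4% and 21.8% in KO1 libraries, against 54.8%, 55.1% and 49.5% in WT libraries, while its TPM overlapped between the groups. Shares of a sum depend on each other, so a larger share of Zm00001d017274 leaves less for Zm00001d017275. This pair was singled out after its values were seen, so its ratio is a description and was not tested. How far reads were divided between the copies was not tested.

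**Figure D2:**
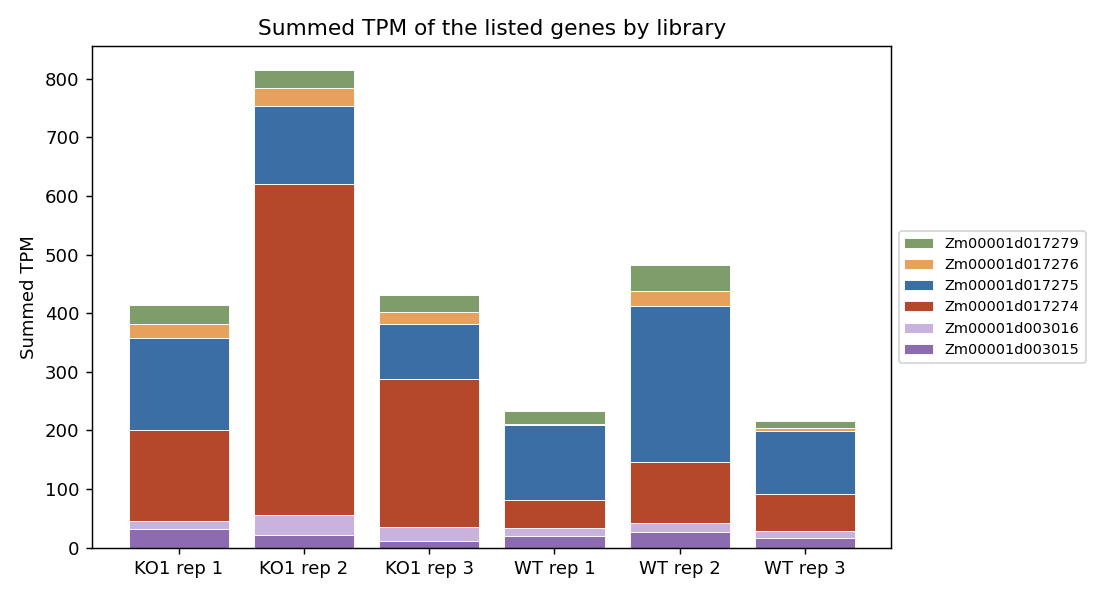
Summed TPM of the listed genes in each library, stacked by gene, with KO1 libraries on the left and WT libraries on the right. The red segment, Zm00001d017274, takes 37.5% to 69.3% of the bar in KO1 libraries and 20.1% to 29.2% in WT libraries, while the bars of KO1 replicate 1 and KO1 replicate 3 are lower than that of WT replicate 2.

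The other copies of the group of 4 did not pass. Zm00001d017276 had 23.0, 30.4 and 21.0 TPM in KO1 libraries, against 2.70, 25.9 and 5.19 TPM in WT libraries. WT replicates 1 and 3 lay far below the KO1 libraries, while WT replicate 2 lay within their range. The difference was 1.58 ± 0.69 on the log2(TPM + 1) scale (SE; limma adjusted p = 0.160), with a 95% interval from -0.07 to 3.23. Without WT replicate 2 it was 2.41 (limma adjusted p = 0.0084), and without WT replicate 1 it was 0.98 (limma adjusted p = 0.351). With library weights it was 1.86 (limma adjusted p = 0.035). The weight was 8.53 for WT replicate 3, against 0.567 for WT replicate 1 and 0.645 for WT replicate 2. The weighted WT level therefore rests mostly on WT replicate 3.

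Zm00001d017279 had 33.0, 31.0 and 28.0 TPM in KO1 libraries, against 21.9, 43.75 and 13.4 TPM in WT libraries. The KO1 values lay close together inside the WT range. The difference was 0.36 ± 0.39 on the log2(TPM + 1) scale (SE; limma adjusted p = 0.549), with a 95% interval from -0.58 to 1.31. The identifiers Zm00001d017277 and Zm00001d017278, which lie between these copies in number and are not on the list, were listed at 0 in all 6 libraries.

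In the pair with lower numbers, neither gene passed. Zm00001d003016 had 13.9, 34.4 and 23.1 TPM in KO1 libraries, against 13.6, 15.7 and 10.8 TPM in WT libraries. KO1 replicate 1 lay within the WT range and the other KO1 libraries above it. The difference was 0.71 ± 0.33 on the log2(TPM + 1) scale (SE; limma adjusted p = 0.179), with a 95% interval from -0.08 to 1.503. It was 0.41 without KO1 replicate 2 (limma adjusted p = 0.370) and 1.04 without KO1 replicate 1 (limma adjusted p = 0.072).

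Zm00001d003015 had 32.05, 21.2 and 11.7 TPM in KO1 libraries, against 20.4, 26.9 and 16.9 TPM in WT libraries. The WT values lay inside the KO1 range. The difference was -0.06 ± 0.37 on the log2(TPM + 1) scale (SE; limma adjusted p = 0.919), with a 95% interval from -0.94 to 0.81. Here too the ratio within the pair varied among KO1 libraries: Zm00001d003016 divided by Zm00001d003015 was 0.43, 1.62 and 1.97 in KO1 libraries and 0.67, 0.59 and 0.64 in WT libraries, so the groups overlapped.

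**Figure D3:**
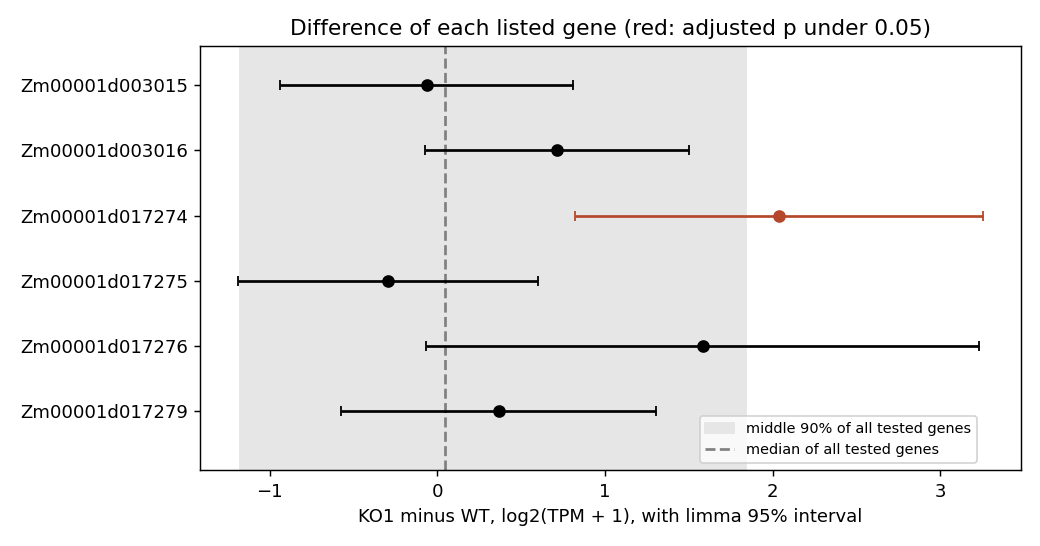
Difference between KO1 and WT for each of the 6 tested genes on the log2(TPM + 1) scale, with its limma 95% interval. The grey band holds the middle 90% of all 20990 tested genes, from -1.18 to 1.84, and the dashed line is their median of 0.05. The interval of Zm00001d017274, in red, lies above 0, and the other 5 intervals include 0.

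Read against the whole table, the share of the family that passed at an adjusted p under 0.05 lay near that of all genes. Its shares by unadjusted p and by groups that did not overlap lay below those of all genes. With 6 tested genes, each of these shares is coarse. Of the 6 tested genes, 1 passed as higher in KO1, 0 as lower and 5 did not pass, by limma at an adjusted p under 0.05. That is 16.7% of the tested members, beside 15.7% of all 20990 tested genes, of which 9.87% passed as higher and 5.86% as lower. That surplus of higher calls depends on the scaling. Quantile normalization gave 1656 higher and 1738 lower genes, against 2071 and 1230 as reported. The median difference of all tested genes was then -0.09, against 0.05. Trimmed-mean scaling kept a surplus, with 2013 higher and 1385 lower genes and a median of 0.01. The member called was the same under both scalings. The adjusted p of Zm00001d017274 was 0.040 with quantile normalization and 0.049 with trimmed-mean scaling (limma). At an unadjusted p under 0.05 the count was also 1 of 6, beside 34.3% of all tested genes. The groups did not overlap for 1 of 6, beside 40.5% of all tested genes, with 22.9% higher and 17.6% lower in KO1. The median difference of the 6 was 0.54 on the log2(TPM + 1) scale, beside 0.05 over all tested genes. The estimate was above 0 for 4 of the 6 and for 11140 of the 20990.

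Summed over the family, transcript abundance overlapped between the genotypes. The 7 genes together had 414, 815 and 431 TPM in KO1 libraries, against 233.5, 482 and 217 TPM in WT libraries. The mean was 553 ± 227 TPM in KO1 and 311 ± 148 TPM in WT (SD, n = 3 each), a ratio of 1.78. That is 0.0553% of the transcript total in KO1 and 0.0311% in WT. Both KO1 replicate 1 and KO1 replicate 3 lay below WT replicate 2, so the groups overlapped. The difference of the means was 243 TPM and was not tested. Without KO1 replicate 2 the ratio was 1.36, and without WT replicate 2 it was 2.46.

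Without Zm00001d017274 the sum had no settled direction. The 6 other genes together had 259, 250.5 and 178 TPM in KO1 libraries, against 187, 378 and 154 TPM in WT libraries, a ratio of means of 0.957 with overlapping groups. That ratio was 1.35 without WT replicate 2 and 1.06 without KO1 replicate 3. The group of 4 had 368, 759.8 and 396 TPM in KO1 libraries, against 199, 439 and 189 TPM in WT libraries, a ratio of means of 1.84. That sum depends less on how reads were divided among the 4 copies than each copy does, and its groups overlapped through WT replicate 2. The pair had 46.0, 55.7 and 34.8 TPM in KO1 libraries, against 34.0, 42.6 and 27.7 TPM in WT libraries, a ratio of means of 1.31 with overlapping groups. A sum over the members was not tested.

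Replicate spread was above the median of all tested genes for all 6 expressed members in WT and for 4 of them in KO1. The median SD of log2(TPM + 1) over the 6 genes was 0.50 in KO1 and 0.63 in WT, beside 0.29 in KO1 and 0.24 in WT over all tested genes. Zm00001d017276 had an SD of 0.27 in KO1 and 1.49 in WT, and the WT value exceeded that of 98.1% of tested genes. Zm00001d017279 had 0.12 in KO1 and 0.82 in WT, the first above 12.5% and the second above 92.6% of tested genes. Zm00001d017274 had 0.94 in KO1, above 94.0% of tested genes, and 0.57 in WT.

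The same WT library was the highest for each expressed member, and its share of the WT spread was not measured. WT replicate 2 had the highest WT level of all 6 expressed members, as it did for 42.5% of all tested genes. Among KO1 libraries, replicate 1 was the highest for Zm00001d003015, Zm00001d017275 and Zm00001d017279, and replicate 2 for Zm00001d003016, Zm00001d017274 and Zm00001d017276. Without both libraries numbered 2, an alternative added after these values were seen, the difference was 1.84 for Zm00001d017274 (limma adjusted p = 0.027) and 2.26 for Zm00001d017276 (limma adjusted p = 0.016) on the log2(TPM + 1) scale. The labels give no harvest time or leaf position per library.

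**Figure D4:**
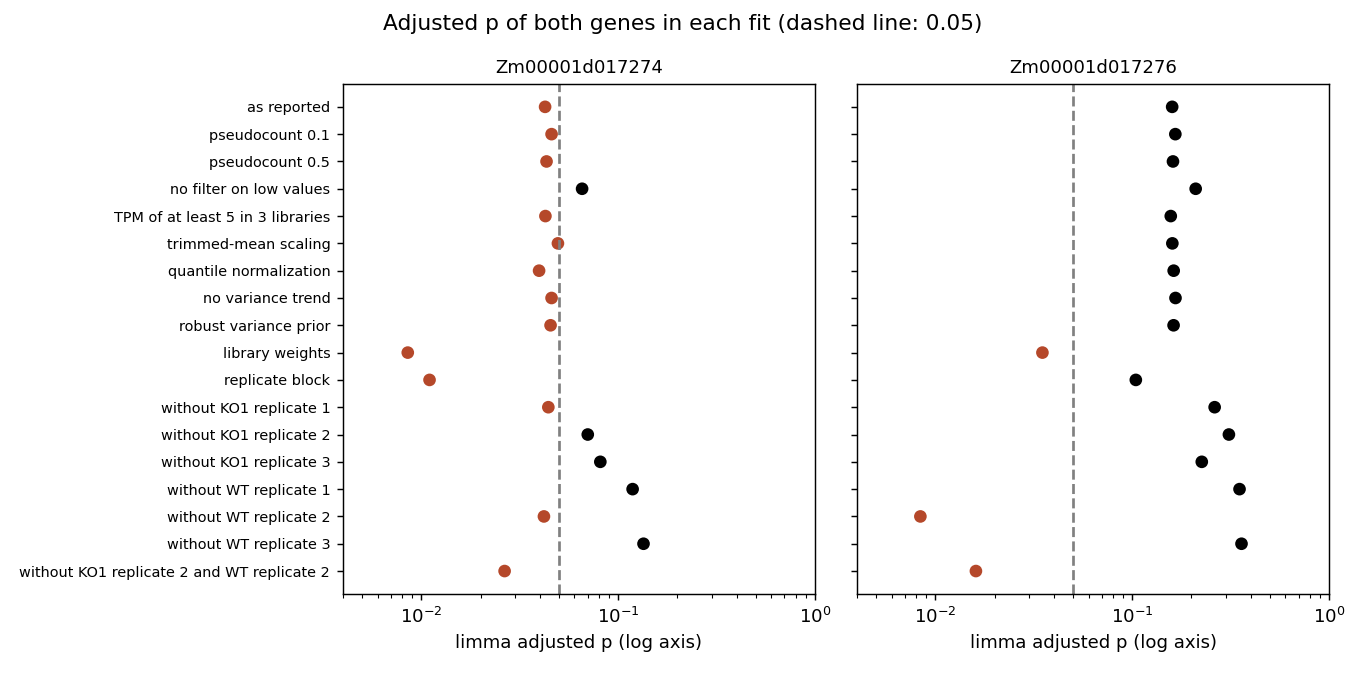
Limma adjusted p of Zm00001d017274 and Zm00001d017276 in the reported fit and in 17 alternative fits, on a log axis, with the threshold of 0.05 dashed. Red points lie under it. Zm00001d017274 lies under it in 12 of the 17 alternatives, and Zm00001d017276 in 3.

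A search outside the list found genes with nearly the same profile over the libraries as the family sum. Likeness was measured as the root mean square difference between centred log2(TPM + 1) profiles over the 6 libraries, among 17372 genes outside the list with at least 1 TPM in each library. The 5 nearest were Zm00001d049502, Zm00001d053425, Zm00001d000099, Zm00001d042490 and Zm00001d039461, at distances of 0.11 to 0.17 on the log2 scale, where the median of these genes was 0.71. These 5 distances are the smallest of 17372, each over 6 libraries. How near a match such a search gives by itself was not tested. Among the members, each of which is part of the sum, Zm00001d003016 was nearest to it at 0.32 and Zm00001d003015 farthest at 0.71. The nearest gene, Zm00001d049502, had 33.8, 61.2 and 29.95 TPM in KO1 libraries, against 18.9, 35.9 and 18.8 TPM in WT libraries. None of the 5 passed the limma test, with adjusted p from 0.093 to 0.198. They were picked for likeness to a sum whose groups overlapped, so this is no separate result. What they encode was not analysed here.

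Identifiers close in number to the members did not share one direction. Within 5 numbers of a member, 28 other identifiers had a row, 12 of them listed at 0 throughout and 13 tested. By the same limma test 2 passed as higher and 2 as lower in KO1, and these 4 are named because they passed. That is 30.8% of the 13, beside 15.7% of all tested genes, and nothing particular to the neighbours was tested. Zm00001d017281 had 46.0, 31.95 and 25.3 TPM in KO1 libraries, against 19.2, 11.0 and 14.4 TPM in WT libraries (limma adjusted p = 0.041). Zm00001d003012 had 6.63, 25.4 and 17.0 TPM in KO1 libraries, against 0.52, 2.90 and 1.16 TPM in WT libraries (limma adjusted p = 0.023). Both lay wholly above WT. Zm00001d003020 was lower, with 11.45, 2.59 and 5.2 TPM in KO1 libraries, against 21.9, 28.1 and 32.9 TPM in WT libraries (limma adjusted p = 0.027). Zm00001d033288, near the member listed at 0, was lower as well, with 1.98, 2.55 and 3.34 TPM in KO1 libraries, against 5.84, 5.3 and 6 TPM in WT libraries (limma adjusted p = 0.034).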

How the data were processed

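The authors deposited 1 table of TPM values for the 6 libraries, with 2 decimals and columns that each sum to 1000000 within rounding. Per the submitters' processing notes, the tools included Bowtie2, RSEM and DESeq2, with no version or step stated. The genome build is not given in the sources used here, nor are the annotation and the read filters. Of 44320 identifiers, 0 matched the 49888 genes of the RefSeq table for Zm-B73-REFERENCE-NAM-5.0. The planned lists of pathway and leaf marker genes, set as gene names, were therefore not analysed here, and no sequence is shown.

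The 20990 genes that reached 1 TPM in 3 or more libraries were fitted with limma 3.58.1 under R 4.3.3. The response was log2(TPM + 1), which understates changes of low genes, with a trended variance prior and no covariates. The test was two-sided, adjusted by Benjamini-Hochberg over every tested gene, and called at 0.05. A fold is the ratio of the mean TPM of the groups. The members and lists were chosen with earlier results of these data known. The text names all members, the 5 genes nearest in profile and the calls among identifier neighbours. In simulated data for KO1 against WT over 20990 genes, with noise independent between genes, 18 of 100 genes with a 2-fold change and 73 of 100 with a 4-fold change were recovered. No other genes were changed there, far fewer than the 3301 called in the data. Since the adjustment depends on how many genes change, these shares do not carry over to the reported fit. Failing the test is no sign of an equal level. Alternatives covered the pseudocount, filter, scaling, variance model, weights per library, a block for replicate number and the omission of each library. Plots were drawn with matplotlib 3.10.9.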

Additional observations from a re-analysis of the deposited data

How the results depend on the processing

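Among 17 alternative fits, Zm00001d017274 kept its direction in all 17, from 1.53 to 2.46 on the log2(TPM + 1) scale, and stayed past the limma threshold in 12. The number of members called was 1 as reported, 0 with no filter on low values (limma, with 1 at an unadjusted p under 0.05), 3 with library weights, 2 without both libraries numbered 2, and 0 to 2 with a single library left out. The share of all tested genes called moved as well. It was 15.7% as reported, 7.96% with no filter and 32.6% with library weights. Without both libraries numbered 2 it was 11.8%, and with a single library left out 3.71% to 14%. The 3 called with library weights were Zm00001d017274, Zm00001d017276 and Zm00001d003016 (limma adjusted p = 0.0085, 0.035 and 0.044), where WT replicate 3 took a weight of 8.53. Without a filter, 30705 genes shared the adjustment in place of 20990. The unadjusted p of Zm00001d017274 was then 0.0070, against 0.0058 as reported (limma). Why the number of members called changed between settings was not tested. The count over all genes was 3301, with 6838 under library weights and 778 to 2929 with a single library left out. The estimates near 0 turned sign: Zm00001d003015 was at 0.0725 with library weights, 0.0675 without both libraries numbered 2 and -0.39 to 0.30 with each library left out. Zm00001d017275 was at 0.0517, 0.0506 and -0.55 to 0.10 in the same settings, and Zm00001d017279 at -0.0207 to 0.80 with each library left out. With each library left out, the KO1 minus WT difference in summed TPM was 112 to 328 for the family, 106 to 314 for the group of 4 and 5.62 to 16.05 for the pair, and the sums kept their direction. Deviations of same-numbered libraries correlated at -0.01, 0.09 and 0.02 over all tested genes, and the reported fit did not pair libraries by number. These correlations cannot show whether the libraries were paired by design. With a replicate block 2806 genes (13.4%) and 1 member were called. The difference of Zm00001d017274 then had an SE of 0.20, against 0.51 as reported, and a limma adjusted p of 0.011. With the rows of each run summed before the fit, the difference was 0.91 for the group of 4 and 0.37 for the pair on the log2(TPM + 1) scale. With a pseudocount of 0.1, 4 of the 5 genes nearest to the family sum were the same. Depth is unknown, so its effect on these calls could not be assessed.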
